A study of Mus musculus with 24 samples.

Results

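Ribosome footprints in the livers of fed Ercc1 mutants were set against those of fed wild types at 16 weeks of age, to ask which genes the liver translates more or less when this repair gene is impaired. The comparison holds 8 of the 24 libraries of the series, chosen by genotype, diet and age alone: 4 from Ercc1 d/- mice and 4 from wild types. All were male F1 C57BL6J/FVBN hybrids, housed individually on AIN93G pellets with food given ad libitum, and none was offered food before collection on the last day. The mutants carried a null and a truncated allele of Ercc1 in all tissues, and per the labels they ate less per day than wild types. The other 4 groups of 4 were wild types and mutants of 16 weeks under 30% dietary restriction, fed mutants of 7 weeks and fed wild types of 104 weeks, and they entered the fit to estimate the spread between libraries.

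ERCC1 pairs with XPF to form the nuclease that cuts damaged DNA in nucleotide excision repair and in the repair of crosslinks between strands. Mice that lack most of its function age early, and the liver is among the organs affected. Ribosome profiling counts the mRNA fragments that ribosomes cover, so a footprint count rises when there is more mRNA, when each mRNA is translated more, or both. The mRNA libraries of the same livers were not analysed here, so these are not separated. In whole liver, fewer cells of a type and less RNA per cell cannot be told apart either.

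The 8 libraries held 13366558 to 25278530 counted footprints. The first principal component of the 8 libraries took 45.85% of the variance and separated the genotypes. The second took 12.87%, and on it mutant replicate 1 lay at -39.39 against 9.73 to 22.67 for the other 3 mutants. This library stands apart, and counts that rest on it are given with and without it. Levels are CPM, counts scaled to equal effective library size. Changes are log2 differences, mutant minus wild type, with their standard error. The adjusted p is that of edgeR's quasi-likelihood test over all 12211 genes, and a gene is said to rise or fall where it is under 0.05.

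Footprints on Ercc1 itself numbered 59, 57, 48 and 38 in wild-type replicates 1 to 4 and 10, 5, 15 and 12 in mutant replicates 1 to 4. No mutant reached the lowest wild type. The level in CPM fell from 2.72 ± 0.727 to 0.564 ± 0.232 (mean ± SD over 4 libraries per group, as in all levels below). On the log2 scale this was -2.25 ± 0.41 (adjusted p = 0.000605). Ercc1 lies on mouse chr7:19344067-19356524 (RefSeq, GRCm38.p6). Among the 8 tested genes within 150 kb, the other one that fell was Ercc2, which encodes the XPD helicase of nucleotide excision repair. Ercc2 had 8.12 to 8.85 CPM in the wild types and 2.54 to 5.14 CPM in the mutants, a log2 change of -1.04 ± 0.20 (adjusted p = 0.00102). Neighbours that did not pass included Opa3 at -0.51 ± 0.26 and Cd3eap, whose annotated end overlaps that of Ercc1, at 0.19 ± 0.30. The partner nuclease gene Ercc4 was at -0.16 ± 0.19 (adjusted p = 0.67).

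Over all genes, 695 rose (5.69% of those tested) and 615 fell (5.04%), together 10.7%. More than 2-fold changes were found for 376 of the risen and 245 of the fallen genes. Without mutant replicate 1 the count of changed genes was 813, and without wild-type replicate 4, the shallowest library, it was 861. With no scaling of library sizes the split was 871 up and 319 down, the median of all genes then being 0.11 in place of 0.0066. The largest rises and falls are described with their groups below.

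**Figure D1:**
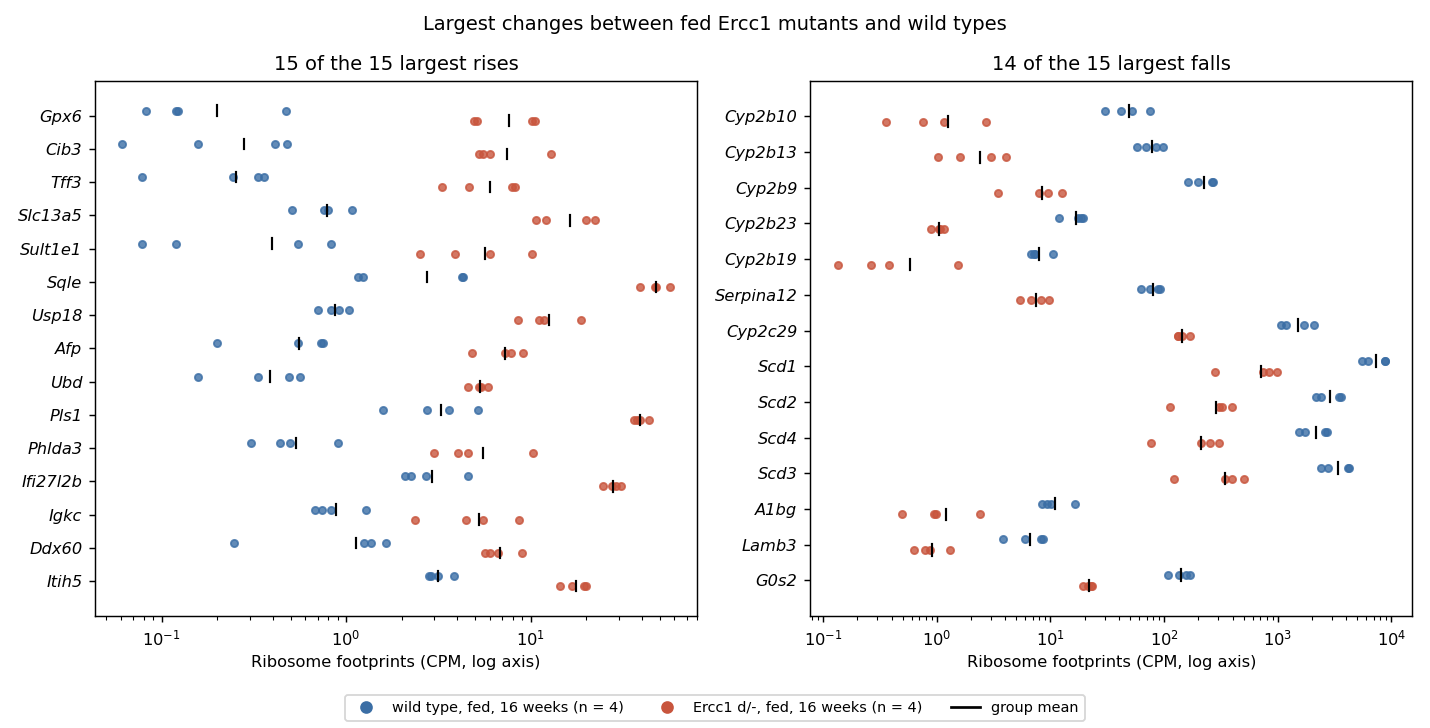
Footprint levels (CPM, log axis) of the 15 genes with the largest rises (left) and 14 of the 15 with the largest falls (right), with a point per library, 4 fed wild types in blue and 4 fed Ercc1 mutants in red, and a bar at each group mean. The genes were picked for separated groups, so the gap between colours is part of the choice, and what can be read is the level, from under 1 CPM in wild types for Gpx6 to 7296 CPM for Scd1.

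Of 52 tested DNA repair genes, 1 rose and 2 fell, Ercc1 and Ercc2 being the falls. The rise was that of Xrcc5, the Ku80 subunit that binds broken DNA ends, from 16.5 ± 3.79 to 28 ± 2.35 CPM (log2 0.76 ± 0.20, adjusted p = 0.0132). It passed in 7 of the 8 fits that leave out a library, and without wild-type replicate 4, at 10.8 CPM the lowest of its group, its adjusted p was 0.0578.

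Targets of p53, the transcription factor that DNA damage switches on, rose in part. Of 35 tested, 10 rose and 2 fell, with a median log2 change of 0.621 against 0.0066 over all genes. Phlda3, which restrains AKT signalling, had 0.901, 0.306, 0.44 and 0.496 CPM in the wild types and 10.3, 3.00, 4.60 and 4.02 CPM in the mutants. The groups did not overlap, mutant replicate 1 was highest, and the log2 change was 3.29 ± 0.59 (adjusted p = 0.000545). The other rises were the death receptor gene Tnfrsf10b (2.94), Eda2r (2.09), Gtse1 (2.05), the kinase gene Plk2 (1.55), Ccng1 (1.06), Aen (0.96), the polymerase gene Polk (0.85), Mdm2, which encodes the ligase that degrades p53 (0.79), and the apoptosis gene Bax (0.75). Eda2r showed how much mutant replicate 1 carried, with 7.67 CPM there against 1.53 to 1.74 CPM in the other mutants. Without that library 1 of the 35 genes rose, Phlda3, and the adjusted p was 0.276 for Eda2r, 0.153 for Tnfrsf10b and 0.12 for Ccng1. Without wild-type replicate 3 there were 3 rises, without replicate 4 5 and without replicate 1 6. Of the 10 risen genes Phlda3 alone passed in all 8 fits that leave out a library. The falls were Perp (-0.89 ± 0.15) and Ei24 (-0.61 ± 0.15), and both held in every fit without a library. The cell cycle inhibitor gene Cdkn1a had 14.2 to 40.2 CPM in wild types and 30.7 to 96.2 CPM in mutants and did not pass (log2 1.12 ± 0.68, adjusted p = 0.334).

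Interferons signal through their receptors to genes whose products sense viral RNA, cleave it or block its translation. Many of these genes carry in their promoters the interferon-stimulated response element, which was searched here as GAAA, then any 2 bases (NN), then GAAA, on both strands of the 300 bases from 250 before to 50 after each RefSeq start site. Of 61 tested interferon genes with a promoter in the table, 25 held it (41.0%), against 3.99% of 27025 genes. It was present in 12 of 27 list members that rose (44.4%) and in 13 of 34 that did not pass (38.2%). Among all genes that rose 9.63% held it, and among all that fell 3.43%. Below are 30-base windows of RefSeq promoters (GRCm38.p6) from risen members, written 5′ to 3′ on the gene's strand with the matching letters in capitals, to show the element in genes that rose by different amounts.
Oas3: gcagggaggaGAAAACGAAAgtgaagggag
Oas1a: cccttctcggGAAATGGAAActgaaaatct
Isg15: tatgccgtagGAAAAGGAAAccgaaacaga
Tgtp1: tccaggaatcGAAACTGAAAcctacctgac
Gbp2: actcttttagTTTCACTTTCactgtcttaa
Gbp3: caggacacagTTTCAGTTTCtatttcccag
The windows lie at chr5:120777715-120777744 (Oas3), chr5:120907526-120907555 (Oas1a), chr4:156200877-156200906 (Isg15) and chr11:48992304-48992333 (Tgtp1), all on the minus strand. Those of Gbp2 and Gbp3 lie on the plus strand at chr3:142620594-142620623 and chr3:142559989-142560018, and there the match is on the opposite strand. In Oas1a, Isg15 and Gbp3 further matches overlap the printed one. The element of Oas3 sits in the following stretch of 250 bases before the start, chr5:120777660-120777909.
Oas3 promoter: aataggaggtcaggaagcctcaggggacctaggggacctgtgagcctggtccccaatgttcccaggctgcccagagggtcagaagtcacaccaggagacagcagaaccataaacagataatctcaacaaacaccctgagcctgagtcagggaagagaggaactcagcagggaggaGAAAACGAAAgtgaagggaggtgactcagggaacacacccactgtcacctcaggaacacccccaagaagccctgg

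Interferon response genes rose in fed mutants: 36 of the 77 tested passed, with a median log2 change of 0.795, and by edgeR none fell. At an unadjusted p under 0.05, 53 were higher and 1 lower, and DESeq2 called 42 higher and 0 lower. The count of rises was 23 without mutant replicate 1. Usp18, which encodes the protease that removes ISG15 and restrains the interferon receptor, had 0.705, 0.919, 1.04 and 0.828 CPM in the wild types. In the mutants it had 18.8, 8.54, 11.1 and 11.9 CPM, and every mutant was above every wild type. Its log2 change of 3.83 ± 0.36 (adjusted p = 7.84e-08) was the largest of the list.

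By role, 27 of 53 effectors rose, 3 of 8 sensors, 3 of 5 brakes and 3 of 11 receptors and signal transducers. Among effectors, Oas1a, which makes the 2-5A messenger that activates RNase L, had 2.31, 1.65, 1.88 and 0.993 CPM in wild types and 10.2, 6.17, 6.73 and 11.2 CPM in mutants (log2 2.28 ± 0.28, adjusted p = 3.71e-06). Oas1g (2.14), Oas3 (2.32) and Oas2 (2.44) rose too, with Oas2 under 1.6 CPM in every library. The mitochondrial protein gene Ifi27 was the most abundant of those named, at 43.7 to 62.2 CPM in wild types and 103 to 124 CPM in mutants (log2 1.17 ± 0.14, adjusted p = 3.47e-06). Its relatives Ifi27l2a (2.84 ± 0.41) and Ifi27l2b (3.24 ± 0.31) rose more, Ifi27l2b not being among the listed effectors and named for its size. Ddx60, a helicase gene outside the list that is likewise named for its size, rose by 2.54 ± 0.56. Of the sensors, Ifih1, which encodes the MDA5 sensor of double-stranded RNA, rose by 0.90 ± 0.23, and the STING gene, listed as Tmem173, by 1.04 ± 0.28. The signal transducers Irf9 (1.31 ± 0.30) and Irf7 (1.33 ± 0.34) rose, whereas Stat2 was at 0.75 ± 0.29 (adjusted p = 0.109). Ifit1 (1.47 ± 0.54, adjusted p = 0.0874) and Rsad2 (1.01 ± 0.42, adjusted p = 0.133), both classical type I targets, did not pass. Of the 8 fits without a library Irf7 passed in 7, the STING gene in 6 and Oas2 in 4. Their highest adjusted p was 0.055 and 0.0946 without mutant replicate 1, and 0.0638 without wild-type replicate 2.

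Antigen presentation genes, which interferon gamma drives most, had a median log2 change of 0.099. Of 25 tested, 3 rose, where 5.69% of all genes rose. DESeq2 called 3 higher and 0 lower, and at an unadjusted p under 0.05 there were 6 and 1. The rises were 1 without wild-type replicate 1 or 3 or mutant replicate 3. The class I heavy chain gene H2-K1 had 529 to 599 CPM in wild types and 560 to 644 CPM in mutants (log2 0.10 ± 0.14, adjusted p = 0.716), and B2m, its light chain, was at 0.19 ± 0.13 (adjusted p = 0.417). The loading factor gene Tapbp (0.53 ± 0.15) and H2-T23 (0.40 ± 0.13) rose. Tapbp passed in 5 of the 8 fits without a library, with an adjusted p of 0.0652 without wild-type replicate 1, and H2-T23 in 2, with 0.14 without wild-type replicate 3.

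**Figure D2:**
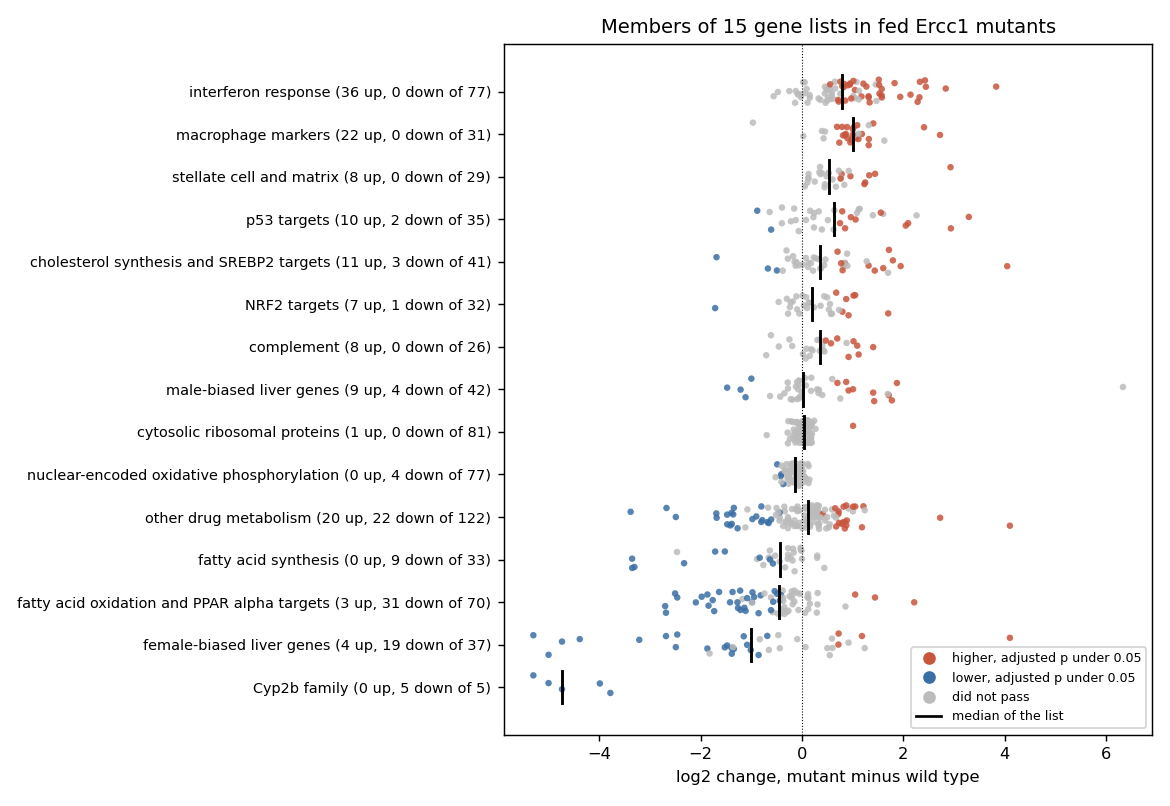
Log2 changes of the tested members of 15 gene lists, mutant minus wild type, with a point per gene, red or blue where the gene rose or fell at an adjusted p under 0.05, grey where it did not pass, and a black bar at the list's median. Risen genes make up 36 of 77 in the interferon list and 22 of 31 in the macrophage list, and fallen genes make up all 5 of the Cyp2b family and 31 of 70 in the fatty acid oxidation list.

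Macrophage markers rose together: 22 of 31 passed upward and none downward by edgeR, with a median of 0.999. DESeq2 called 23 higher and 0 lower, and at an unadjusted p under 0.05 there were 24 and 1. Without wild-type replicate 1 the rises were 17. Summed over the list, the level ran from 483.4 to 535.5 CPM in wild types and from 769.7 to 994.5 CPM in mutants. Clec4f, a lectin gene specific to Kupffer cells, the liver's resident macrophages, had 83.0, 92.0, 92.4 and 91.5 CPM in wild types and 199, 143, 170 and 183 CPM in mutants. The groups did not overlap (log2 0.95 ± 0.15, adjusted p = 0.000106). Other Kupffer cell genes rose as well: Cd5l by 1.32 ± 0.18, the complement receptor gene Vsig4 by 1.11 ± 0.21 and the scavenger receptor gene Marco by 2.41 ± 0.56. The complement gene C1qa rose from 22.8 ± 2.21 to 48.5 ± 4.37 CPM, and the pore-forming protein gene Mpeg1 from 44.0 ± 9.44 to 116.4 ± 15.7 CPM. Trem2, a receptor gene of lipid-associated macrophages, was near the limit of detection in wild types with 0, 6, 6 and 1 counts and had 12, 25, 33 and 16 counts in mutants (log2 2.72 ± 0.66, adjusted p = 0.00798). Gpnmb, of the same cell state, did not pass (1.62 ± 0.57, adjusted p = 0.0654). Timd4 and Lgals3 rose by 0.85 ± 0.25 and 1.06 ± 0.28. Timd4 passed in 3 of the 8 fits without a library (adjusted p = 0.0907 without mutant replicate 1) and Lgals3 in 6 (0.0574 without wild-type replicate 2).

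Among stellate cell and matrix genes 8 of 29 rose and none fell by edgeR, and 15 were higher and 0 lower at an unadjusted p under 0.05. DESeq2 called 9 and 0. Lumican, Lum, a collagen-binding proteoglycan, had 5.25, 7.17, 7.2 and 7.45 CPM in wild types and 21.0, 16.1, 20.6 and 15.6 CPM in mutants (log2 1.44 ± 0.21, adjusted p = 3.95e-05), and decorin, Dcn, rose by 0.78 ± 0.18. The fibrillar collagen gene Col3a1 was at 0.39 ± 0.35 (adjusted p = 0.544) and the myofibroblast gene Acta2 at 0.11 ± 0.31 (adjusted p = 0.882). When mutant replicate 1 was left out, 5 genes of the list rose.

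Markers of other immune cells were sparse. Of 7 tested B and plasma cell genes 2 rose (1 without mutant replicate 4), among them the antibody light chain gene Igkc from 0.885 ± 0.275 to 5.24 ± 2.61 CPM, and of 2 tested T and NK cell genes 1 rose, Thy1, which the stellate list also holds. Of 6 tested neutrophil genes 3 rose and 1 fell (log2 -1.66), by edgeR and by DESeq2, and without mutant replicate 1 none fell. Among the rises, S100a8 (2.79 ± 0.70) and S100a9 (3.47 ± 0.57) were at levels under 5 CPM. Lcn2, a neutrophil and acute-phase gene, ran from 3.05 to 69.1 CPM in wild types and from 53.4 to 542 CPM in mutants, so its groups overlapped. Without mutant replicate 4, the highest for both, the adjusted p of S100a8 was 0.0703 and that of Lcn2 0.143, and Lcn2 passed in 2 of the 8 fits without a library. Of 23 endothelial genes 1 rose, and of 5 erythroid genes none passed by edgeR, by DESeq2 or at an unadjusted p under 0.05.

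Hepatocyte markers summed to 231500 to 257000 CPM in wild types and 170100 to 228400 CPM in mutants, with 2 of 26 up and 5 down. Leaving out each library in turn gave 2 to 5 falls. Albumin was at -0.26 ± 0.19 (adjusted p = 0.432). The shares of these cells in the tissue were not measured, and their part in the changes of other genes was not tested. Tff3, a secreted trefoil peptide made by bile duct and goblet cells, rose from 0.254 ± 0.127 to 6.04 ± 2.44 CPM, by 4.59 ± 0.42 (adjusted p = 4.62e-08). It was the 1 riser among 11 cholangiocyte genes, and the duct keratin gene Krt19 was at 0.78 ± 1.07 (adjusted p = 0.72).

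The Cyp2b enzymes are cytochrome P450s of drug and steroid oxidation that the nuclear receptor CAR induces. Cyp2b10, Cyp2b13 and Cyp2b9 had the largest falls among genes with separated groups and at least 5 CPM in wild types, gene models and pseudogenes aside. All 5 tested Cyp2b genes fell, in every fit with a library left out. Cyp2b10 had 41.4, 51.6, 30.1 and 74.4 CPM in wild types and 0.761, 1.16, 2.73 and 0.357 CPM in mutants. The lowest wild type was 11 times the highest mutant, and the log2 change was -5.31 ± 0.46 (adjusted p = 1.96e-07). Cyp2b13 fell by 5.01, Cyp2b9 by 4.74, Cyp2b23 by 3.99 and Cyp2b19 by 3.78 on the log2 scale. These paralogs are similar in sequence and how shared reads were assigned is not given, so the members are uncertain one by one.

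In the rest of drug metabolism 20 genes rose and 22 fell of 122, with a median of 0.126. With mutant replicate 1 left out, 12 rose and 19 fell. Among P450s, Cyp2c29 had 1182, 2095, 1065 and 1684 CPM in wild types and 132, 169.5, 144 and 132 CPM in mutants (log2 -3.39 ± 0.23, adjusted p = 5.87e-10). Cyp2c38 (-2.68 ± 0.22), Cyp2c39 (-2.49 ± 0.19) and Cyp3a11, the main drug oxidase of mouse liver (-1.36 ± 0.25), also fell. Cyp2a5, the coumarin hydroxylase, went the other way, from 608 ± 139 to 1407 ± 213 CPM (1.21 ± 0.24, adjusted p = 0.00156). The receptor genes themselves were at -1.12 ± 0.39 for Nr1i3, which encodes CAR (adjusted p = 0.069), at -0.31 ± 0.22 for Nr1i2, which encodes PXR (adjusted p = 0.43), and at 0.84 ± 0.19 for Ahr, which rose (adjusted p = 0.00496). Sult1e1, the sulfotransferase that inactivates oestrogens, had 0.0783 to 0.828 CPM in wild types and 2.50 to 10.2 CPM in mutants (4.10 ± 0.86, adjusted p = 0.00411).

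Targets of NRF2, the factor that answers oxidants, rose in 7 of 32 cases and fell in 1, the malic enzyme gene Me1. Osgin1, an oxidative stress response gene, had 47.7, 67.1, 70.4 and 60.2 CPM in wild types and 249, 186, 132 and 230 CPM in mutants (1.70 ± 0.28, adjusted p = 0.000342). Nqo1, a quinone reductase gene, rose by 1.05 ± 0.26, Gstp1 by 0.87 ± 0.23 and Nfe2l2, which encodes NRF2, by 0.92 ± 0.28. Counts of Gstp2 were 0.873 to 0.931 of those of Gstp1 in all 24 libraries, so Gstp1 is uncertain in the same way as other genes with near-identical copies. Without mutant replicate 1, 3 of the list rose, the adjusted p of Nfe2l2 being 0.15 and that of Gstp1 0.0507, and without wild-type replicate 4 there were 4. Nfe2l2 passed in 2 of the 8 fits without a library. Of 22 antioxidant enzyme genes 1 rose and 4 fell, with 2 to 3 falls when a library was left out. The rise was Gpx6, a glutathione peroxidase gene known from the nose, and the largest among risen genes with separated groups and at least 5 CPM in mutants. Its counts were 12, 2, 3 and 1 in wild types and 78, 192, 193 and 114 in mutants (5.07 ± 0.39, adjusted p = 3.62e-09). Sod1 fell by 0.48 ± 0.12 and catalase, Cat, was at -0.41 ± 0.15 (adjusted p = 0.0712).

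Sex differences in mouse liver are set largely by the pattern of growth hormone pulses, and genes that one sex expresses more were followed in these males. Of 37 female-biased genes 19 fell and 4 rose (median -1.013), with 2 rises without mutant replicate 1, and 3 of the fallen are Cyp2b genes and 5 others are Cyp2c or Cyp3a genes. Hao2, a hydroxyacid oxidase gene of that list, fell from 3.68 ± 2.52 to 0.167 ± 0.11 CPM (-4.39 ± 0.75, adjusted p = 0.000342). A1bg fell by 3.21 ± 1.00 and passed in none of the 8 fits without a library (adjusted p up to 0.118, without mutant replicate 3). Of 42 male-biased genes 9 rose and 4 fell (median 0.025). The pheromone carrier gene Mup20 had 2381, 2657, 3260 and 4116 CPM in wild types and 12720, 8564, 10020 and 11130 CPM in mutants (1.77 ± 0.36, adjusted p = 0.00248). Cyp7b1, an oxysterol hydroxylase gene, rose by 1.71 ± 0.33 and the complement gene C6 by 1.40 ± 0.19, whereas Cyp4a12a, an arachidonic acid hydroxylase gene, fell by 1.21 ± 0.16 on the log2 scale. In all 24 libraries the counts of Cyp4a12b were 0.765 to 1.009 of those of Cyp4a12a, so shared reads may count for both and the value is uncertain. The growth hormone receptor gene Ghr fell by 0.61 ± 0.17 and Insr, the insulin receptor gene, by 0.61 ± 0.15, while Igf1 was at -0.27 ± 0.15 (adjusted p = 0.291). Ghr passed in 6 of the 8 fits without a library, with an adjusted p of 0.0575 without mutant replicate 1. Igfbp2, a binding protein gene for IGF hormones, rose from 71.3 ± 5.75 to 187 ± 57.0 CPM (1.39 ± 0.27, adjusted p = 0.00155).

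Enzymes of cholesterol synthesis, which the factor SREBP2 drives when sterols are low, rose in 9 of 20 cases and fell in none, with a median of 0.868. Sqle, squalene epoxidase, had 4.27, 1.16, 4.28 and 1.24 CPM in wild types and 56.9, 47.0, 47.9 and 39.3 CPM in mutants (4.05 ± 0.66, adjusted p = 0.000467). The highest wild type was far below the lowest mutant. Msmo1 rose from 22.4 ± 4.75 to 86.8 ± 7.93 CPM (1.95 ± 0.39) and Cyp51 from 43.4 ± 13.9 to 108.1 ± 22.6 CPM (1.31 ± 0.29). Insig2, which holds SREBP in the endoplasmic reticulum, fell from 104.7 ± 46.1 to 32.4 ± 3.08 CPM (-1.69 ± 0.26, adjusted p = 0.000127). Srebf2, the gene of SREBP2 itself, was at 0.46 ± 0.18 and did not pass (adjusted p = 0.112). Of the whole list of 41 genes 11 rose and 3 fell, and the rises were 6 without wild-type replicate 2, 3 or 4 and 7 without mutant replicate 1 or 3. The falls were 1 without mutant replicate 1 or wild-type replicate 3 or 4.

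In fatty acid synthesis 9 of 33 genes fell and none rose by edgeR, and 9 fell in each of the 8 fits without a library. DESeq2 called 9 lower and 0 higher, and at an unadjusted p under 0.05 there were 12 and 2. Scd1, the desaturase that makes monounsaturated fatty acids, had 8691, 8788, 6220 and 5485 CPM in wild types and 989.7, 747, 282 and 833 CPM in mutants. The lowest wild type was more than 5 times the highest mutant (-3.36 ± 0.44, adjusted p = 3.1e-05). Scd2, Scd3 and Scd4 are called beside it, but in all 24 libraries their counts were 0.357 to 0.429, 0.396 to 0.509 and 0.248 to 0.34 of those of Scd1. Shared reads may count for each of them, so they are uncertain. A count of fallen genes that holds such copies may repeat the same signal. Acacb, whose malonyl-CoA restrains fatty acid oxidation, fell from 137 ± 38 to 27.3 ± 2.34 CPM (-2.33 ± 0.36). Me1 (-1.72 ± 0.33), which supplies NADPH, and the elongase gene Elovl5 (-1.52 ± 0.23) fell too. The regulator gene Srebf1 was at -0.28 ± 0.48 (adjusted p = 0.791) and Acaca at -0.66 ± 0.33 (adjusted p = 0.23).

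Fatty acid oxidation genes and targets of PPAR alpha, the receptor that turns on fat burning in fasting, fell in 31 of 70 cases and rose in 3, with a median of -0.462. The falls were 21 without mutant replicate 3. The peroxisomal and microsomal enzymes fell most often, 14 of 18, against 5 of 19 mitochondrial ones, a difference between roles that was not tested. Acaa1b, the peroxisomal thiolase, had 2393, 1305, 2028 and 1882 CPM in wild types and 429, 534, 368 and 448 CPM in mutants (-2.10 ± 0.20, adjusted p = 7.84e-08). Cyp4a14, a microsomal omega-hydroxylase, had 237 to 1173 CPM in wild types and 81.0 to 181 CPM in mutants (-2.46 ± 0.51, adjusted p = 0.00376). Cyp4a10, its relative, fell by 1.08 ± 0.31 and passed in 5 of the 8 fits without a library, and without wild-type replicate 4, the highest at 1789 CPM, its adjusted p was 0.162. Counts of its copy Cyp4a31 were 0.408 to 0.74 of its own in all 24 libraries, so it is uncertain too. Acot1 (-1.98 ± 0.34), a thioesterase, and Fabp1 (-1.37 ± 0.17), the abundant fatty acid carrier, fell. Among droplet genes, G0s2, which inhibits the lipase ATGL, fell from 142 ± 26.6 to 21.8 ± 1.69 CPM (-2.70 ± 0.54). Ppara itself was at -0.62 ± 0.21 (adjusted p = 0.0605) and Cpt1a, the gate to mitochondrial oxidation, at 0.31 ± 0.23 (adjusted p = 0.46). Cd36, a fatty acid uptake gene, fell by 0.82 ± 0.25, but passed in 1 of the 8 fits without a library, with an adjusted p of 0.145 without wild-type replicate 4. Lpl, the lipoprotein lipase, rose from 2.13 ± 0.799 to 10.2 ± 2.16 CPM (2.21 ± 0.47, adjusted p = 0.00429).

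Of 45 glucose and glycogen genes 2 rose and 7 fell, with 4 falls without wild-type replicate 1. The fructose enzyme gene Khk fell by 0.78 ± 0.16 on the log2 scale. Hexokinase genes of other tissues rose from low levels, Hk1 by 0.92 ± 0.25 and Hk2 by 1.28 ± 0.40. Without mutant replicate 1 neither passed, with an adjusted p of 0.0709 for Hk1 and 0.127 for Hk2. They passed in 5 and 3 of the 8 fits without a library. Pck1 and G6pc of gluconeogenesis were at -0.24 ± 0.64 and -0.39 ± 0.53 (adjusted p = 0.868 and 0.717). The plasma membrane citrate transporter gene Slc13a5 rose from 0.785 ± 0.232 to 16.3 ± 5.67 CPM (4.42 ± 0.46, adjusted p = 5.05e-07). The insulin-sensitising serpin gene Serpina12 fell from 79.7 ± 13.8 to 7.50 ± 1.82 CPM (-3.41 ± 0.36).

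Targets of ATF4, the factor of the integrated stress response, did not move as a group: 1 of 27 rose and 3 fell. Asns, asparagine synthetase, had 2, 2, 5 and 0 counts in wild types and 14, 15, 26 and 48 in mutants (3.49 ± 0.55, adjusted p = 0.000107), while Atf5 (-1.46 ± 0.31) and Vldlr (-3.83 ± 0.48) fell. By edgeR none of 25 endoplasmic reticulum chaperone and unfolded protein response genes passed, against 1 by DESeq2 and 3 at an unadjusted p under 0.05, all lower. None of 24 heat shock genes passed by edgeR or DESeq2, with 1 higher and 3 lower at an unadjusted p under 0.05. Of retinoid genes 5 rose and 2 fell of 23, with 4 and 1 in each of the 8 fits without a library. The retinol saturase gene Retsat fell from 836 ± 138 to 268.5 ± 26.5 CPM (-1.64 ± 0.14, adjusted p = 2.08e-08). Alpha-fetoprotein, Afp, the fetal counterpart of albumin, had 0.548, 0.735, 0.20 and 0.745 CPM in wild types and 7.87, 7.22, 9.14 and 4.82 CPM in mutants (3.77 ± 0.46, adjusted p = 5.56e-06). Gpc3, another fetal liver gene, rose by 1.92 ± 0.36, the Wnt target gene Axin2 by 1.81 ± 0.37 and the cyclin gene Ccnd1 by 1.94 ± 0.51. Ccnd1 was the 1 riser among 33 proliferation genes, and it passed in 5 of the 8 fits without a library, with an adjusted p of 0.0614 without wild-type replicate 3. In bile acid synthesis Cyp8b1, the sterol 12-hydroxylase, fell by 1.47 ± 0.42, passing in 3 of the 8 fits without a library (adjusted p = 0.097 without wild-type replicate 4), and Cyp7a1, the rate-limiting enzyme, was at -0.42 ± 0.58 (adjusted p = 0.72).

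Of 81 cytosolic ribosomal protein genes 1 rose, with a median of 0.035. Of 43 translation factor genes 5 rose and 1 fell, with a median of 0.144, where 5.69% of all genes rose and 5.04% fell. The rises were 3 without mutant replicate 3, and the fall was lost in 5 of the 8 fits without a library. Of 77 nuclear-encoded oxidative phosphorylation genes 4 fell (median -0.143), and without wild-type replicate 4 none of them passed. None of the 13 mitochondrially encoded genes passed by edgeR, by DESeq2 or at an unadjusted p under 0.05.

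Footprints on genes with long genomic spans fell more often. The deposited gene length is read here as the genomic span with introns, that is, how far RNA polymerase must travel. Some deposited lengths differ from RefSeq gene lengths, so the classes were also formed with the latter. The span classes hold only genes that RefSeq lists as protein-coding. Of 260 such tested genes over 300 kb, 74 fell (28.46%) and 7 rose (2.69%), with a median log2 change of -0.481. Of 2829 genes of up to 10 kb, 104 fell (3.68%) and 177 rose (6.26%), with a median of 0.017. The share that fell was 4.01% at 10 to 50 kb, 4.81% at 50 to 100 kb, 8.08% at 100 to 200 kb and 13.03% at 200 to 300 kb. Long genes had lower levels, with a median of 3.74 CPM in wild types over 300 kb and 8.39 CPM up to 10 kb. Among genes of 5 to 50 CPM alone, 44 of 94 over 300 kb fell (46.81%) and 37 of 1209 up to 10 kb (3.06%). With RefSeq gene lengths in place of the deposited ones, 73 of 254 genes over 300 kb fell (28.74%). Leaving out each library in turn gave 56 to 68 falls over 300 kb.

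Summed over the tested protein-coding genes of more than 300 kb, wild types had 4838, 4745, 4642 and 4904 CPM. Mutants had 2745, 2641, 2664 and 2952 CPM, with no overlap. The sum leans on abundant members, of which Dpyd, the enzyme that breaks down pyrimidines, was one (870.8 kb). It fell from 568 ± 23.9 to 138 ± 18.6 CPM (-2.04 ± 0.18, adjusted p = 2.01e-08). The next genes were chosen after their values were seen, from the longest that fell. Ptprd, a receptor phosphatase gene of 2270.7 kb, fell from 173 ± 11.4 to 81.6 ± 14.3 CPM (-1.08 ± 0.20). Immp2l (928.3 kb), a mitochondrial peptidase gene, fell by 2.09 ± 0.17 and Sugct (838.1 kb) by 1.76 ± 0.18. The fragile-site genes Fhit (1611.9 kb) and Wwox (913.1 kb) fell by 1.49 ± 0.28 and 1.71 ± 0.30. Dmd, the dystrophin gene (2257.3 kb), was at -0.49 ± 0.22 and did not pass (adjusted p = 0.153). Among the 7 long genes that rose were Ank3, Dock2, Gpc3, Nrg1, Plxdc2 and Prickle2.

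A value per library over broader sets of genes gave a weaker picture. The long genes here start at 68.41 kb and the short ones end at 8.5 kb, and genes between were left out. The mean log2 CPM of the 2392 longest protein-coding genes minus that of the 2392 shortest was -0.500 ± 0.0586 in wild types and -0.651 ± 0.111 in mutants. The difference of -0.151 gave p = 0.0857 in an exact 2-sided permutation test over 70 assignments, of which the smallest possible p is 0.0286. With groups of genes 0.5 times that size at both ends the difference was -0.222 (exact permutation p = 0.0286).

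**Figure D3:**
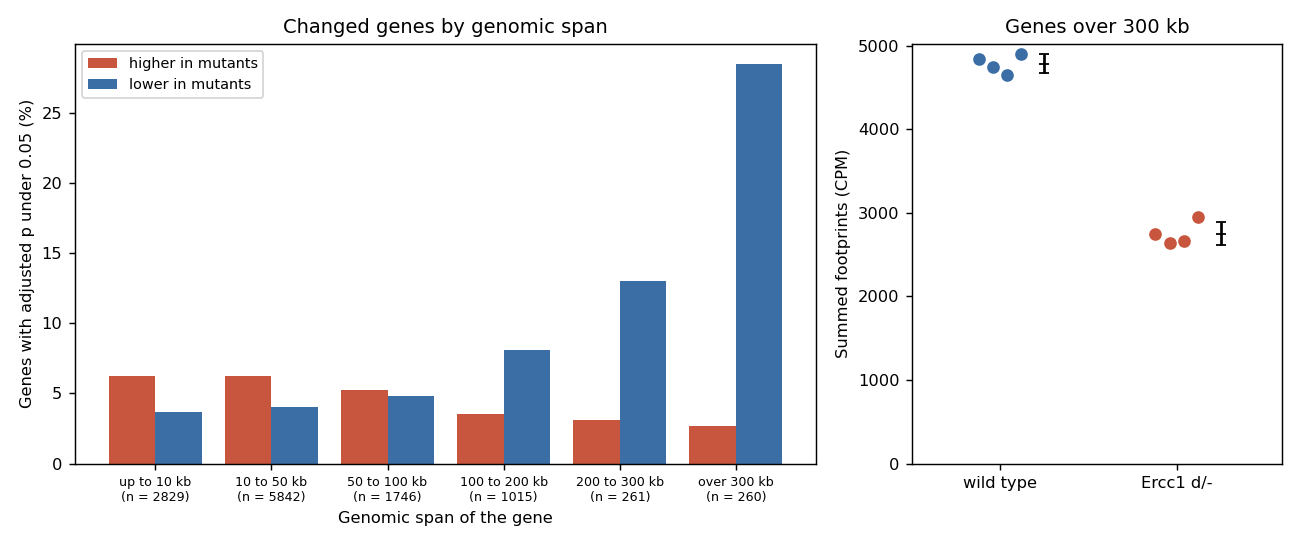
Left, share of tested protein-coding genes (%) that rose (red) or fell (blue) in fed mutants at an adjusted p under 0.05, by genomic span, with the number tested under each class. Right, footprints (CPM) summed over the 260 genes of more than 300 kb, a point per library and mean ± SD at the side (n = 4). The share that fell climbs from 3.68% to 28.46% with span, and the 4 mutants sit between 2641 and 2952 CPM, below all wild types.

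The fed genotype difference was set beside that of restricted mice of the same age, mutant minus wild type, in an interaction contrast, since the restricted groups are other animals. The difference between both effects passed for 98 genes (0.803%). Of these 57 also changed in fed mice. Of the 57, 37 had an estimate of the opposite sign in restricted mice, 16 had the same sign and were smaller, and 4 were larger. The difference in restricted mice was not tested by itself, and some opposite estimates were small, as for Insig2 (0.1). The 57 were picked by both contrasts, which favours smaller or opposite values, so the counts do not show reversals. Without restricted wild-type replicate 1 the 98 became 204, and without restricted wild-type replicate 2 they became 177. Without fed wild-type replicate 3 there were 65, without fed mutant replicate 4 63, and without restricted mutant replicate 1 64.

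Cyp2b10 had 171 ± 38.8 CPM in restricted wild types and 50.4 ± 17.0 CPM in restricted mutants, a log2 change of -1.76, and the fed change was larger by 3.55 ± 0.57 (adjusted p of the interaction = 0.00239). For Scd1 the restricted levels were 3315 ± 849 and 2176 ± 478 CPM, a change of -0.61 against -3.36 in fed mice (adjusted p = 0.0226). Sqle was at 26.0 ± 13.4 CPM in restricted wild types and 27.7 ± 8.13 CPM in restricted mutants, so its change was 0.09 (adjusted p = 0.0316). Cd36 went from 30.6 ± 5.51 to 203 ± 14.2 CPM under restriction, a rise of 2.73 against a fed change of -0.82 (adjusted p = 1.13e-05). For Usp18, with 2.09 ± 0.982 and 26.6 ± 7.33 CPM under restriction, the difference between both effects was 0.17 ± 0.46 (adjusted p = 0.926). For Cd5l it was 0.38 ± 0.26 (adjusted p = 0.576). A p that misses the threshold does not show that these effects are alike.

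Fed mutants of 7 weeks had 13 ± 2.33 CPM of Usp18, 12.1 ± 5.82 CPM of Sqle and 1751 ± 723 CPM of Scd1. Fed wild types of 104 weeks had 1.00 ± 0.546 CPM of Usp18, 9.75 ± 8.31 CPM of Sqle and 7242 ± 3861 CPM of Scd1. These levels are given as they stand, without a test.

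**Figure D4:**
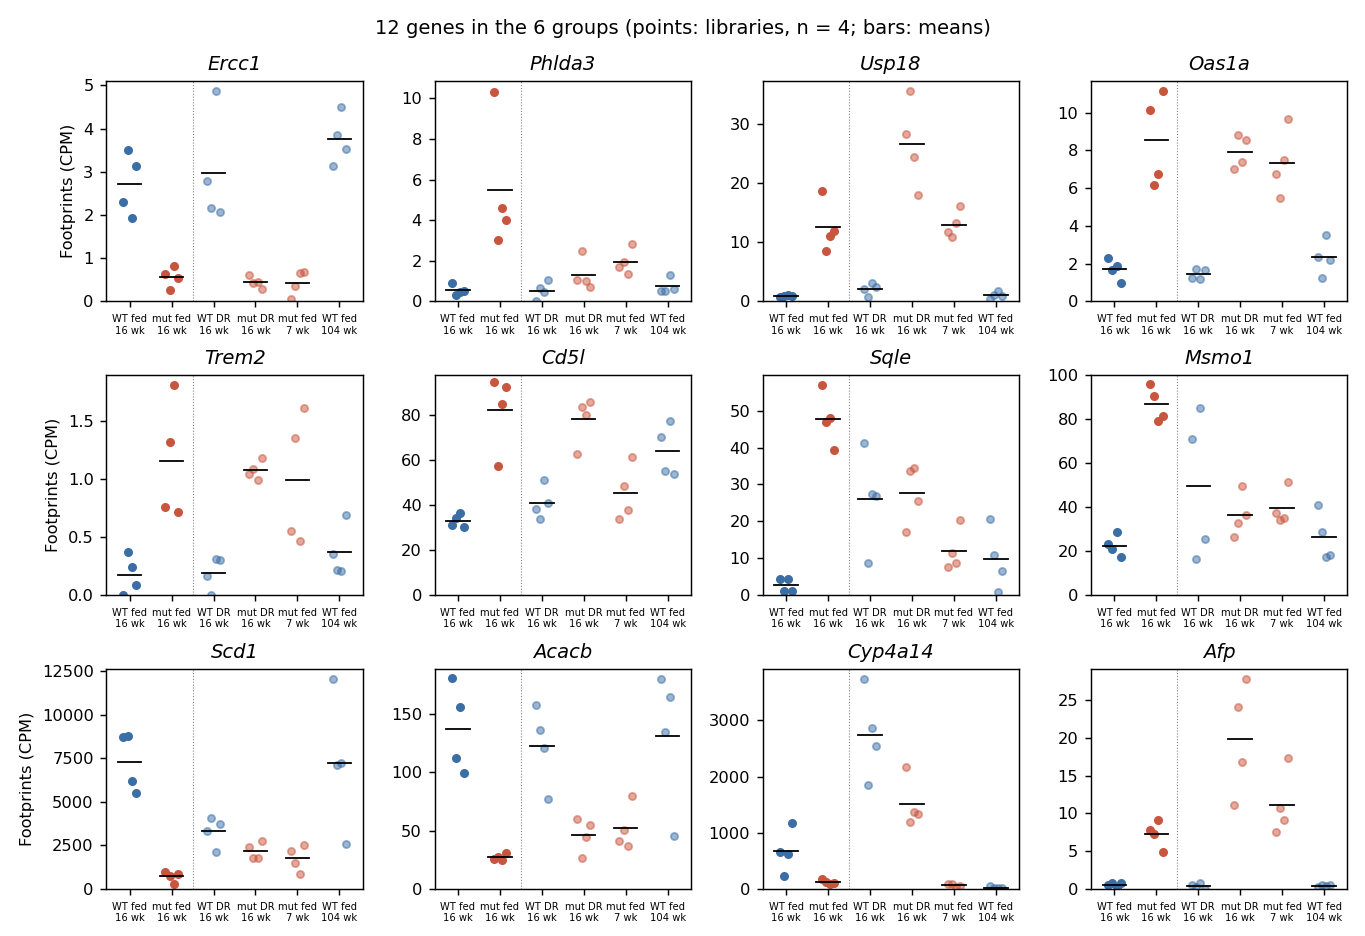
Footprint levels (CPM, linear axes from 0) of 12 genes in the 6 groups, a point per library (n = 4) and a bar at the group mean, with mutants in red and wild types in blue; fed mice of 16 weeks are at the left of the dotted line and restricted (DR), younger and older mice at its right. Ercc1 was lower in every mutant than in every wild type of the compared pair, and Sqle had 2.74 and 47.8 CPM in the fed pair against 26.0 and 27.7 CPM in the restricted pair.

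The deposited table of open reading frames counts P-sites, the positions of the ribosome's peptidyl site. Of 18344 ORFs tested in the same way, 922 rose (5.03%) and 755 fell (4.12%), together 9.14%. The ORFs name a transcript and no gene, and they were sorted by place within the transcript. Of 515 ORFs that lie upstream of the longest ORF of their transcript, 4 rose and 22 fell, together 5.05% against 9.14% of all ORFs. Rises were rare among them, while their falls were near the 4.12% of all ORFs. Their median log2 change was -0.306, against 0.016 for the 17552 longest or sole ORFs. Of 24 changed upstream ORFs whose longest ORF was tested too, 11 changed the same way as it did, none the other way by edgeR, and for 13 the longest did not pass. The largest rise was on ENSMUST00000042755 (5.00 ± 0.48, adjusted p = 1.61e-07) and the largest fall on ENSMUST00000072438 (-5.88 ± 0.80, adjusted p = 9.1e-05). Without mutant replicate 1, 1027 ORFs changed.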

How the data were processed

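Ribosome profiling of mouse liver was deposited as 2 tables, counts of reads per gene and counts of P-sites per ORF, neither normalized. The submitters' processing notes name cutadapt 3.4, Trimmomatic 0.39, Bowtie2 2.4.2, STAR (2.7.0f, 2.7.8a), Subread 1.6.4 with featureCounts, and the build GRCm38.p6. Neither the handling of shared reads nor the use of strand is given in the sources used here. The authors' deposited counts went into edgeR 4.0.16 (R 4.3.3, robust quasi-likelihood F test, 2-sided, TMM). The fit held all 24 libraries in 6 groups with 18 residual degrees of freedom, and the contrast was fed mutant minus fed wild type. filterByExpr kept 12211 of 22429 genes and 18344 of 22590 ORFs, and p-values were adjusted by Benjamini-Hochberg. The standard error is the log2 change divided by the square root of F. The biological coefficient of variation was 24.15%. The labels number the samples in each group and do not say that these are separate mice, so p-values measure the spread between samples, nor whether same-numbered samples share a litter or batch. Deviations of same-numbered wild types and mutants had r from -0.126 to -0.05, and those of the other pairs -0.018 to 0.063. Same-numbered libraries thus did not deviate in the same direction, and no pairing was used. No column without a sample was used.

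Genes were named by rule: the 15 largest rises and falls with separated groups and at least 5 CPM, and, of 49 lists, key genes and up to 6 members by adjusted p. Members and lists were chosen with earlier results of these data known. Some genes the rule picks are not reported here. Of 1431 listed genes 1424 were in the table and 1334 were tested. RefSeq served for promoters, gene lengths and the position of Ercc1. In counts simulated for this contrast over 12211 genes, 100 of 100 genes changed 4-fold and 57 of 100 changed 2-fold were called, with 11 false calls. Over 18344 simulated ORFs these were 100, 55 and 7. The simulation gave every gene or ORF the same spread, held no library that stands apart, and placed changes only above a minimum mean count. Recovery was not tested by count level or spread, so these figures are not carried over to genes or ORFs with few counts or a wider spread. Alternatives were DESeq2 1.42.0, upper-quartile and no scaling, no filter, the 8 libraries alone, a replicate block and leaving out each library.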

Additional observations from a re-analysis of the deposited data

Results flagged for a closer look

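The genotype difference in fed mice differed from that in restricted mice for 21 of the named genes, by the interaction contrast. The difference of the differences, fed minus restricted on the log2 scale, was negative for the P450 genes Cyp2b9 (-3.51), Cyp2b10 (-3.55), Cyp2b13 (-3.54), Cyp2b23 (-2.4), Cyp2c29 (-2.51), Cyp2c38 (-2.22), Cyp2c39 (-2.32) and Cyp3a11 (-1.77). It was negative as well for the desaturase genes Scd1 (-2.75), Scd2 (-2.89), Scd3 (-2.81) and Scd4 (-2.97), which share reads and count as uncertain, and for Insig2 (-1.78), Abcg5 (-1.29), Vldlr (-2.55) and Cd36 (-3.55). It was positive for the sterol genes Sqle (3.96), Msmo1 (2.4) and Cyp51 (1.81), for Osgin1 (2.57) and for Igfbp2 (1.64). Abcg5 had the larger change in restricted mice, 2.09 against 0.80.

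Among 340 groups of 4 libraries, those of the named genes in fed mutants and fed wild types, 22 (6.5%) held a library far from the other 3 by Dixon's test, where chance flags about 1 in 20. Wild-type replicate 4, the shallowest library, had 7 of them: it was lowest for Xrcc5 (10.8 CPM), Eda2r (0 CPM), Isg15 (2.73), Ddx60 (0.248), Ifit1bl1 (0) and Ghr (163) and highest for Atf5 (14.0). Mutant replicate 1 was highest for Ccng1 (24.04), Eda2r (7.67) and Ifit1bl1 (2.60), mutant replicate 2 for Oas2 (1.53), Fdft1 (86.7) and Cib3 (12.9), and mutant replicate 3 was lowest for Acot1 (33.4). Wild-type replicate 1 was lowest for Clec4f (83.0), Lum (5.25) and C6 (135), replicate 2 highest for Ahr (32.7) and lowest for Socs2 (1.59), and replicate 3 highest for S100a9 (0.480) and lowest for Cux2 (0.2399) and Cyp7a1 (116).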

How the results depend on the processing

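Of 170 genes tested for the text 130 passed, and 87 of these passed under every alternative. In fits without a library 42 lost their call at least once. In the 6 other alternatives 110 passed wherever an adjusted p was given, S100a8 being judged on 5 of them. No gene changed sign. Fitting the 8 compared libraries alone called 2138 genes in place of 1310 and 2925 ORFs in place of 1677. DESeq2 called 1641 genes, 2169 ORFs and 279 genes in the interaction in place of 98. With no scaling 1190 genes passed, and without a filter 1044. Leaving out each library gave 813 to 1096 genes, 1027 to 1356 ORFs and 63 to 204 interaction genes, and a length trend of -0.101 to -0.181. With groups of genes 0.5 times as large at both ends that trend was -0.222 (exact permutation p = 0.0286), past the threshold where the larger groups (-0.151) were not. The cause of these differences was not tested. The replicate block gave 1250 genes, 1601 ORFs and 112 interaction genes, and the labels do not say whether the numbers pair the mice. Few counts limit the precision of low genes, and wild-type replicate 4 is the shallowest library. The gene list added after its values were seen, the RefSeq lengths and the classes at 5 to 50 CPM are alternatives chosen after seeing the data.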

Other observations

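Genes of nucleolar ribosome assembly, a list put together after their values were seen, rose in part: 16 of 59 passed upward and none downward by edgeR, with a median log2 change of 0.438. At an unadjusted p under 0.05, 36 were higher and 1 lower, and DESeq2 called 26 higher and 0 lower. Among them were the box C/D factor genes Nop56 (1.15) and Nop58 (0.99), the nucleolar GTPase gene Gnl3 (1.11), the rRNA methyltransferase gene Nop2 (0.96) and the helicase gene Ddx21 (0.79). Summed over the list the level was 1046 to 1123 CPM in wild types and 1327 to 1796 CPM in mutants. Leaving out mutant replicate 1 left 6 rises.

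Cdh1, the E-cadherin gene of periportal hepatocytes, had 7.17, 4.47, 10.6 and 12.9 CPM in wild types and 31.7, 34.1, 32.5 and 35.7 CPM in mutants, a log2 change of 1.94 ± 0.49 (adjusted p = 0.0138). It was the 1 riser among 19 tested periportal genes, whose median was -0.203. In that list 4 genes fell, and 0 without wild-type replicate 4, where 5.69% of all genes rose and 5.04% fell. The actin-bundling gene Pls1 rose from 3.27 ± 1.503 to 39.1 ± 3.23 CPM (3.54 ± 0.32) and the hyaluronan-binding gene Itih5 from 3.17 ± 0.469 to 17.7 ± 2.55 CPM (2.46 ± 0.32). Cib3, a calcium-binding protein gene, rose from 0.278 ± 0.201 to 7.42 ± 3.64 CPM (4.71 ± 0.48). The laminin chain gene Lamb3 fell from 6.65 ± 2.23 to 0.899 ± 0.282 CPM (-2.86 ± 0.52).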
